A study of Mus musculus with 12 samples.

Results

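The genes described here are 9 of the 36131 genes in a count table of mouse retinas, namely 8 genes that mark resting Müller glia (Glul, Rlbp1, Slc1a3, Aqp4, Kcnj10, Dkk3, Apoe and Car14) and Etnppl. The 8 were chosen by name as markers of the cell type, with earlier results of these data known. Etnppl was chosen by its measured difference between oxygen-exposed and room air retinas. All 9 are in the table and passed the filter on low counts. RNA-seq was done on whole retinas of 12 C57BL/6J wildtype mice at P18, 4 in each of 3 groups. RA-PBS mice stayed in room air, while O2-PBS and O2-IC100 mice were kept in 75% O2 from P7 until they came back to room air at P12, which is a model of oxygen-induced retinopathy. On P12, P14 and P16 the mice of the first 2 groups were injected with PBS as placebo and those of the third with IC100, a humanized antibody against the inflammasome adaptor ASC, at 10 µg/g by the intraperitoneal route. No group received IC100 in room air, so an effect of the antibody without oxygen was not measured. Animals 1 to 4 are the RA-PBS mice, animals 5 to 8 the O2-PBS mice and animals 9 to 12 the O2-IC100 mice.

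Müller glia are the main glial cells of the retina, and they span it from the inner limiting membrane to the photoreceptors. They take up glutamate and turn it into glutamine, carry potassium and water away from active neurons, buffer bicarbonate, bind retinoids for the cones and secrete lipoproteins. After injury they lower some of these functions and raise genes of a reactive state. Etnppl encodes an enzyme that breaks down phosphoethanolamine, a building block of phosphatidylethanolamine, and in the brain it is known as an astrocyte gene.

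Some retinas carried RNA of neighbouring tissue, and this bears on every comparison below. Crystallin genes, which mark lens, took 59% of the counts of O2-IC100 animal 10, 1.26 to 4.51% of those of RA-PBS animals 2, 3 and 4, and at most 0.02% in the other 8 retinas. Summed pigment epithelium markers were 3325 CPM in animal 10 and 80.4 to 399.9 CPM in the other 11, and summed rod markers were 4019 CPM in animal 10 against 41860 to 51990 CPM. RA-PBS animal 4 held 5194 CPM of 8 oligodendrocyte genes, a list made after the data were seen, while animal 10 held 635.9 CPM and the other 10 retinas 34.3 to 48.3 CPM. Y-linked genes summed to 239 to 372 CPM in 7 retinas and to 1.31 to 11 CPM in RA-PBS animal 4, O2-PBS animals 5, 6 and 7 and O2-IC100 animal 10, so the sexes were not evenly spread over the groups. Total counts were 14906970 to 24437916 per retina. Most results are given without animal 10, with the values of all 12 retinas beside them where that retina moves them. CPM of single genes and of the summed oligodendrocyte genes are counts scaled to a common library size, with TMM factors. Summed CPM of the Y-linked genes and of the other marker lists were scaled to total counts alone, without TMM factors. These scales differ most for animal 10, whose TMM factor was 0.324, so its sums of the 2 kinds are not to be set against each other.

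In RA-PBS retinas the 9 genes covered a wide range of levels. Per kilobase of the longest annotated transcript, Glul, which encodes glutamine synthetase, was at 705 ± 179 CPM/kb (SD, n = 4). Apoe, which encodes the main apolipoprotein of retinal glia, was at 409 ± 145 CPM/kb. Rlbp1, which encodes the retinaldehyde-binding protein CRALBP, was at 199 ± 40.7 CPM/kb and Dkk3, a secreted Dickkopf family protein, at 193 ± 25.9 CPM/kb. Car14, a membrane carbonic anhydrase, was at 48.8 ± 7.5 CPM/kb and the glutamate transporter Slc1a3 (GLAST) at 42.2 ± 3.81 CPM/kb. The water channel Aqp4 was at 16.4 ± 4.19 CPM/kb, the inward rectifier potassium channel Kcnj10 (Kir4.1) at 11.3 ± 2.09 CPM/kb and Etnppl at 2.18 ± 0.319 CPM/kb. The ranges over the 4 retinas overlapped between Glul and Apoe, between Rlbp1 and Dkk3, between Car14 and Slc1a3 and between Aqp4 and Kcnj10, so these neighbours are not ordered beyond their spread. Apoe and Rlbp1 met at 252 CPM/kb. Dkk3 and Car14, Slc1a3 and Aqp4, and Kcnj10 and Etnppl did not overlap.

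**Figure D1:**
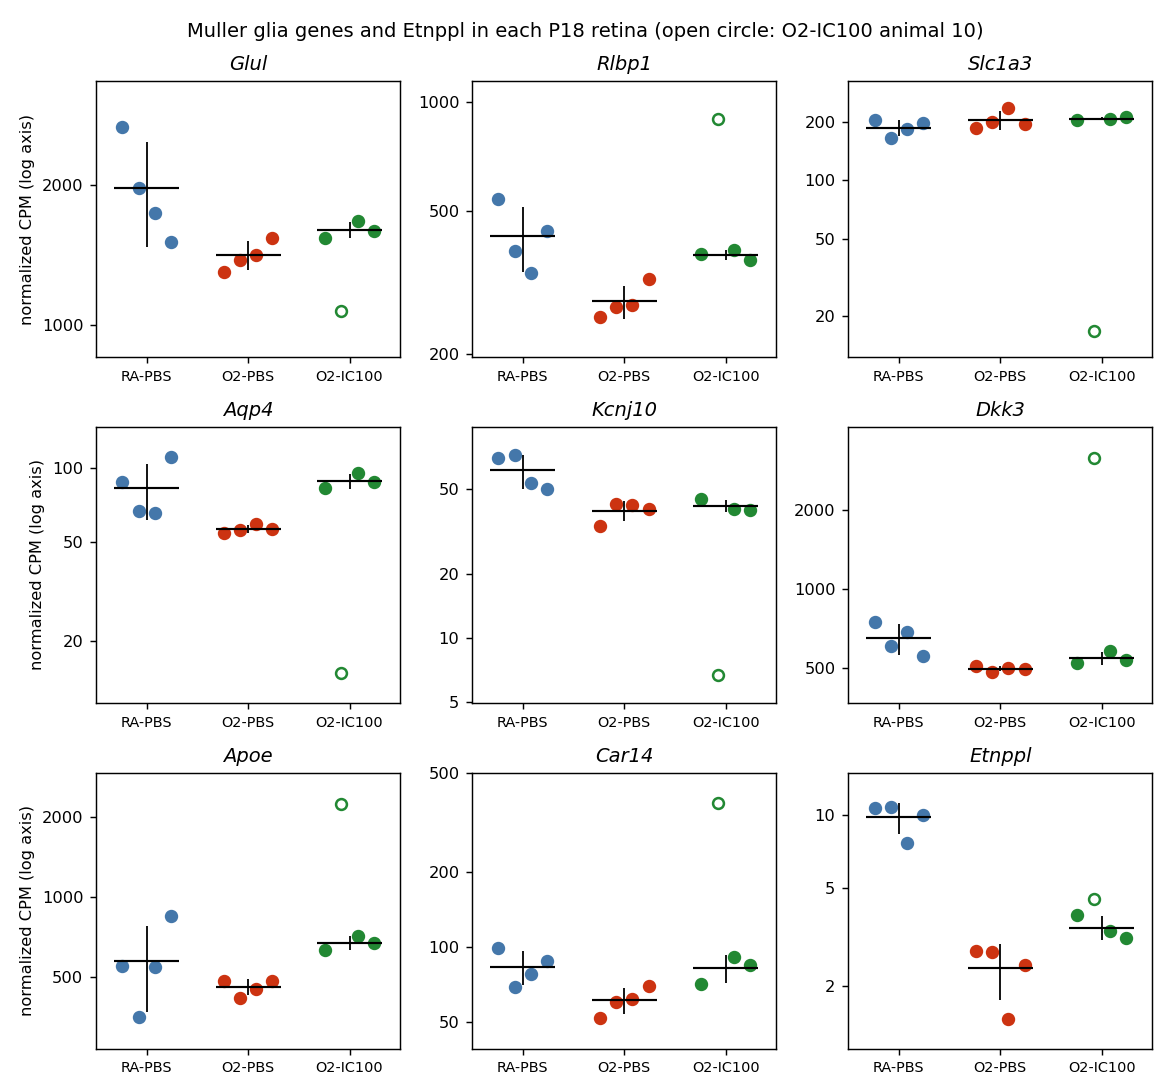
Normalized CPM on log axes of each gene in each of the 12 retinas, by group, with the mean (horizontal bar) and SD (vertical bar) of each group. The open circle is O2-IC100 animal 10, which is left out of the O2-IC100 mean and SD (n = 3 there, n = 4 in the other groups). Etnppl lay at 7.66 to 10.7 CPM in RA-PBS and at 1.47 to 2.77 CPM in O2-PBS, while Slc1a3 overlapped between these groups.

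The first comparison, O2-PBS against RA-PBS, asks what oxygen exposure left behind in the Müller glial genes at P18. Because this comparison was used to choose Etnppl, the 9 genes are described here without p-values. Etnppl was at 0.243 times its room air level, 5 of the 9 genes lay lower in all 4 O2-PBS retinas than in any RA-PBS retina (6.63% of all genes tested did), and Slc1a3 was not lower. In whole retina, fewer Müller glia and less RNA per cell cannot be told apart.

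Etnppl was measured at 10.6, 10.7, 7.66 and 10.0 CPM in the RA-PBS retinas of animals 1 to 4 and at 2.77, 2.76, 1.47 and 2.44 CPM in the O2-PBS retinas of animals 5 to 8. The highest O2-PBS value was far under the lowest RA-PBS value. These levels rest on 138 to 222 counts per retina in RA-PBS and on 26 to 53 in O2-PBS. The log2 fold change was -2.04 (SE 0.24; SE 0.21 without animal 10), with means of 9.75 ± 1.43 and 2.36 ± 0.614 CPM (SD, n = 4 each). RA-PBS animal 3, the room air retina richest in crystallin RNA, had the lowest of the RA-PBS levels, and RA-PBS animal 1, with little of it, was at the level of animals 2 and 4. Whether lens RNA had a part in the difference was not tested beyond the covariates given. Without animals 4 and 10 the log2 fold change of Etnppl was -2.03, and without animals 3 and 10 it was -2.14. It was the first of the 4 genes past the thresholds as lower in the fit of all 12, ahead of Gabra4 at -1.33 (SE 0.21; lowest RA-PBS value 9.69, highest O2-PBS value 5.82 CPM) and Gabrb1 at -0.93 (SE 0.15; 16.7 and 11.5 CPM), which encode GABA-A receptor subunits. It was not the largest fall without overlap of any gene. At a mean of at least 1 CPM, 11 genes fell more, among them the lens genes Mip and Lgsn and the myelin genes Mbp and Sox10, named after their values were seen. None of the 11 passed the thresholds with all 12 retinas, and 9 did without animal 10.

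Glutamate handling was split between its 2 members. Glul was measured at 2660, 1970, 1740 and 1510 CPM in RA-PBS and at 1300, 1380, 1410 and 1540 CPM in O2-PBS. Only O2-PBS animal 8 reached above the lowest RA-PBS retina, animal 4, and the log2 fold change without animal 10 was -0.49 (SE 0.14). Slc1a3 was measured at 204, 166, 183 and 197 CPM in RA-PBS and at 185, 199, 237 and 196 CPM in O2-PBS. Its groups overlapped, with a log2 fold change of 0.12 (SE 0.09, 95% interval -0.06 to 0.31).

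The potassium and water channels of the glial endfeet both lay lower in O2-PBS. Kcnj10 was at 69.6, 72.1, 53.2 and 49.8 CPM in RA-PBS and at 33.4, 42.4, 42.2 and 40.4 CPM in O2-PBS, with no overlap and a log2 fold change of -0.63 (SE 0.13). Aqp4 was at 88, 67, 66 and 111 CPM in RA-PBS and at 54.6, 56.1, 59.2 and 56.9 CPM in O2-PBS, again with no overlap and a log2 fold change of -0.55 (SE 0.14). The 4 O2-PBS retinas were close together, and the RA-PBS spread came largely from animal 4, the retina with oligodendrocyte RNA. Without animals 4 and 10 the Aqp4 difference was -0.38.

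Among the retinoid, bicarbonate and lipid genes, Rlbp1 was at 540, 387, 336 and 439 CPM in RA-PBS and at 254, 270, 273 and 323 CPM in O2-PBS. These did not overlap, and the log2 fold change was -0.61 (SE 0.13). Car14 was at 98.8, 69.1, 77.7 and 87.9 CPM in RA-PBS and at 51.7, 60.4, 62 and 69.7 CPM in O2-PBS, so that only animal 8 overlapped animal 2, with a log2 fold change of -0.45 (SE 0.13). Apoe was at 551, 355, 546 and 850 CPM in RA-PBS and at 486, 418, 453 and 485 CPM in O2-PBS, which overlapped, with a log2 fold change of -0.32 (SE 0.19). Without animals 4 and 10 the Apoe difference was -0.07, while those of Rlbp1 and Car14 were -0.59 and -0.42. Rlbp1, Car14 and Apoe are also expressed in pigment epithelium, whose 10 markers had a median log2 fold change of -1.14 in the same comparison without animal 10, with 6 past the thresholds as lower (0 of 9 tested with all 12 retinas) and summed levels of 139 to 400 CPM in RA-PBS and 80.4 to 169 CPM in O2-PBS. With the pigment epithelium level as a covariate the log2 fold changes of Rlbp1, Car14 and Apoe were -0.80, -0.56 and -0.27. Dkk3 was at 750, 603, 685 and 553 CPM in RA-PBS and at 508, 484, 498 and 497 CPM in O2-PBS, with no overlap and a log2 fold change of -0.38 (SE 0.10).

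With all 12 retinas, 1 of the 9 genes passed the thresholds (1.5-fold or more in either direction, p below 0.05 before adjustment and below 0.1 after it), namely Etnppl, against 0.807% of the 16489 genes tested. Without animal 10 it was 3 of 9, Etnppl, Rlbp1 and Kcnj10, against 6.27% of 16688. When RA-PBS animal 1 was left out as well, Rlbp1 and Kcnj10 were at -0.47 and -0.56, under the minimum fold change, and 1 of 9 passed. With a Y-linked covariate without animal 10, Rlbp1 and Kcnj10 were at -0.57 and -0.52, again under that minimum. Aqp4 was then at -0.66 and Etnppl at -2.04. With that covariate and all 12 retinas, Rlbp1 was at -0.76 and Kcnj10 at -0.21. The part of sex in these differences was not tested beyond this covariate. All genes tested had a median log2 fold change of -0.01, against -0.47 for the 8 Müller glial genes. Nothing is read from these counts, because the comparison was used in the choice. With the crystallin share as a covariate over all 12 retinas, Slc1a3, Dkk3, Apoe and Car14 turned direction, to -1.13, 0.21, 0.18 and 0.05.

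The sequence in front of the start site is shown for the 3 genes past the thresholds in O2-PBS against RA-PBS without animal 10, as context for genes that moved the same way. RefSeq promoter windows of the GRCm38.p6 build were searched for 7 of the 9 genes, with 10 windows in all, each of 250 bases before and 50 after a start. Dkk3 had no window there and Aqp4 was left out of the search, so the motif counts cover neither gene. The 250 bases before the start were taken from the forward strand at chr3:130617198-130617447 for Etnppl, the reverse strand at chr7:79387028-79387277 for Rlbp1 and the forward strand at chr1:172340960-172341209 for Kcnj10, and they are given 5′ to 3′ with motif matches in capitals.
Etnppl: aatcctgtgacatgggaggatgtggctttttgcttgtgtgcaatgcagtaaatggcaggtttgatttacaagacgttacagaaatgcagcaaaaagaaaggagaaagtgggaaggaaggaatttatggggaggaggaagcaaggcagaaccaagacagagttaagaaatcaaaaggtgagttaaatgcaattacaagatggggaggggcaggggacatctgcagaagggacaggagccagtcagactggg
Rlbp1: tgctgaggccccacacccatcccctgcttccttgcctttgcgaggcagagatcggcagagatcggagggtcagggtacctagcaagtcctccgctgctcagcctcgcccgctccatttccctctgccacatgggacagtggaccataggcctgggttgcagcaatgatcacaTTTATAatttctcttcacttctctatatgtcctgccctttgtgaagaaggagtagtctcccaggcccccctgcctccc
Kcnj10: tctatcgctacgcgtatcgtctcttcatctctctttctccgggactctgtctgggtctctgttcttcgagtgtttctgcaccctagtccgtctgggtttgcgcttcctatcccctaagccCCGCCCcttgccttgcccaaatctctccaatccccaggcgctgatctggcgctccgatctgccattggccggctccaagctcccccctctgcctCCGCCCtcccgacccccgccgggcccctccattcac

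The capitals are a TATA box (TATAAA, on the reverse strand) in Rlbp1 and 2 GC boxes (GGGCGG, reverse strand) in Kcnj10, and the Etnppl stretch holds none of the motifs searched. A second Etnppl start in the RefSeq table, whose 250 bases lie at chr3:130617325-130617574, has a GC box in front of it. On both strands of the whole windows, GGGCGG was found in 5 of the 10 and in 35.7% of 32851 windows of all genes, TATAAA in 3 and 13.6%, the SOX core ACAAT in 2 and 31%, the hypoxia-inducible factor core ACGTG in 2 (Car14 and Slc1a3) and 19.6%, and the homeodomain core TAATTA in 1 and 5.29%. The palindromic NFI motif and the glucocorticoid response element, each with its spacer free, were in none of the 10, and in 0.0365% and 0.00913% of all windows. No motif searched was found in all 3 of Etnppl, Rlbp1 and Kcnj10. A match is a run of letters and not a shown binding site.

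**Figure D2:**
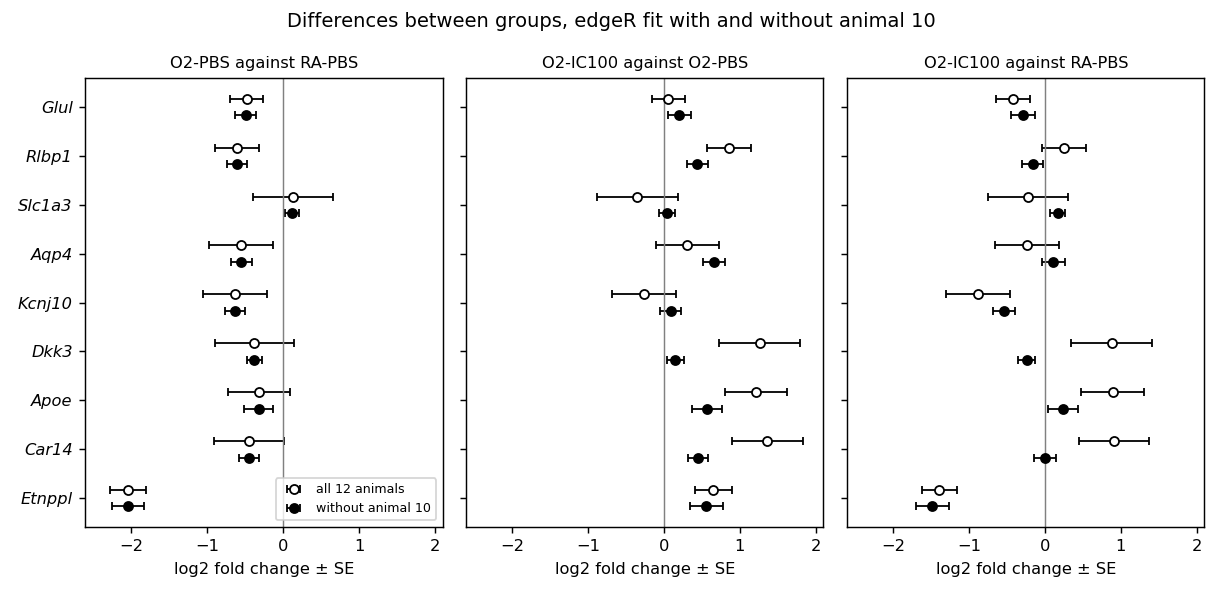
Log2 fold change ± SE from edgeR for each gene in the 3 comparisons, with all 12 retinas (open) and without O2-IC100 animal 10 (filled). Without animal 10, Etnppl was at -2.04 in O2-PBS against RA-PBS and at -1.48 in O2-IC100 against RA-PBS, and the SE of Slc1a3, Aqp4, Kcnj10 and Dkk3 were smaller in all 3 comparisons.

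The second comparison, O2-IC100 against O2-PBS, asks how the same genes stood in oxygen-exposed mice that received the antibody. It shares its O2-PBS retinas with the first comparison, so the values of the 2 comparisons are not independent. Without animal 10, Aqp4 rose 1.58-fold and was the only 1 of the 9 past the thresholds, against 0.947% of 16688 genes. With all 12 retinas none of the 9 passed, and none of 16489 genes did by edgeR's quasi-likelihood test (0%), although 2784 had an unadjusted p-value under 0.05 and DESeq2 called 125.

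Aqp4 was measured at 83.2, 95.7 and 87.8 CPM in O2-IC100 animals 9, 11 and 12, above all 4 O2-PBS retinas, and at 14.8 CPM in animal 10, below them. Without animal 10 the log2 fold change was 0.66 (SE 0.15, edgeR quasi-likelihood test, adjusted p = 0.0823). The adjusted p was 0.00384 with DESeq2, 0.0118 when RA-PBS animal 4 was also left out and 0.126 with the pigment epithelium level as a covariate, where the log2 fold change was 0.73. RA-PBS animal 4 is not in this comparison and bears on it only through the fit that the 3 groups share. With animal 10 the log2 fold change was 0.31 (SE 0.42, edgeR adjusted p = 0.693). The 3 retinas with high Aqp4 also had high Y-linked RNA, and 3 of the 4 O2-PBS retinas had little. O2-PBS animal 8, with 259 CPM of Y-linked RNA, had 56.9 CPM of Aqp4, and the 4 O2-PBS retinas spanned 54.6 to 59.2 CPM. With a Y-linked covariate the log2 fold change was 0.91 without animal 10 (edgeR adjusted p = 0.0919). With that covariate and all 12 retinas it was -0.05 (edgeR adjusted p = 0.94). Since only animal 8 of the O2-PBS retinas had much Y-linked RNA, the part of sex in this difference was not tested beyond this covariate.

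Etnppl was measured at 3.89, 3.36 and 3.14 CPM in animals 9, 11 and 12 and at 4.54 CPM in animal 10. All 4 lay above the O2-PBS retinas and all 4 lay below the RA-PBS retinas. The log2 fold change against O2-PBS was 0.56 (SE 0.22) without animal 10 and 0.65 (SE 0.24) with it, and neither passed (edgeR adjusted p = 0.217 and 0.287).

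Of the remaining genes, Rlbp1 (378, 388 and 365 CPM in animals 9, 11 and 12), Apoe (632, 715 and 676 CPM), Car14 (70.8, 91.5 and 84.7 CPM) and Dkk3 (520, 580 and 535 CPM) lay above all O2-PBS retinas. Their log2 fold changes without animal 10 were 0.44 (SE 0.14) for Rlbp1, 0.57 (SE 0.20) for Apoe, 0.45 (SE 0.13) for Car14 and 0.15 (SE 0.11) for Dkk3, with edgeR adjusted p = 0.161, 0.191, 0.15 and 0.435. Over all 12 retinas they were 0.86 (SE 0.29), 1.21 (SE 0.41), 1.36 (SE 0.47) and 1.26 (SE 0.53), each with edgeR adjusted p = 0.287. None of these passed in either fit. When RA-PBS animal 4 was left out as well, the edgeR adjusted p was 0.0812 for Rlbp1, 0.0387 for Apoe and 0.0706 for Car14 at the same differences, which stayed under the minimum fold change. RA-PBS retinas bear on this comparison only through the shared fit. With RA-PBS animal 1 left out instead, the edgeR adjusted p was 0.0755, 0.16 and 0.0966 in that order. It was 0.0953, 0.184 and 0.131 with RA-PBS animal 3 left out, and 0.133, 0.243 and 0.154 with the pigment epithelium covariate. Pigment epithelium markers had a median log2 fold change of 0.64 in this comparison without animal 10, with none past the thresholds.

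Glul (1540, 1670 and 1590 CPM in animals 9, 11 and 12), Slc1a3 (204, 208 and 213 CPM) and Kcnj10 (45.0, 40.2 and 40.0 CPM) overlapped O2-PBS. Their log2 fold changes were 0.20 (95% interval -0.10 to 0.50), 0.04 (-0.16 to 0.24) and 0.09 (-0.17 to 0.36). In all, 6 of the 9 genes lay higher in O2-IC100 without overlap when animal 10 was left out, and 18% of all genes did so.

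The third comparison, O2-IC100 against RA-PBS, shows where oxygen and antibody together left each gene. Etnppl remained low. Against 10.6, 10.7, 7.66 and 10.0 CPM in RA-PBS it was 3.14 to 3.89 CPM in the 3 O2-IC100 retinas, a log2 fold change of -1.48 (SE 0.22, edgeR adjusted p = 0.012), and it was the only 1 of the 9 past the thresholds, against 1.56% of 16688 genes. With all 12 retinas it was -1.39 (SE 0.23, edgeR adjusted p = 0.183) and none of the 9 passed, against 0% of all genes, with 2183 genes at an unadjusted p-value under 0.05 and 299 called by DESeq2, which called Etnppl (adjusted p = 1.85e-06). The RA-PBS retinas are those used to choose Etnppl, so this is not independent of that choice.

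Kcnj10 also lay below all RA-PBS retinas, with a log2 fold change of -0.54 (SE 0.14, edgeR adjusted p = 0.081), which is under the minimum fold change. Over all 12 retinas it was -0.88 (SE 0.42, edgeR adjusted p = 0.375). Without animal 10 and RA-PBS animal 4 it was -0.62 and past the thresholds (edgeR adjusted p = 0.0111). Without animal 10 and RA-PBS animal 3 it was -0.61 (edgeR adjusted p = 0.0615). Both of these alternatives were chosen after seeing the data. With RA-PBS animal 1 left out instead, as planned, Kcnj10 was at -0.46 and did not pass (edgeR adjusted p = 0.134). The result thus depends on which room air retina is left out. The other 7 genes did not pass. Without animal 10, log2 fold changes were -0.29 (SE 0.16) for Glul, -0.24 (SE 0.11) for Dkk3, -0.16 (SE 0.14) for Rlbp1, 0.00 (SE 0.14) for Car14, 0.11 (SE 0.15) for Aqp4, 0.17 (SE 0.10) for Slc1a3 and 0.24 (SE 0.20) for Apoe, with edgeR adjusted p from 0.306 to 0.993. Over all 12 retinas they were -0.42, 0.88, 0.25, 0.91, -0.24, -0.22 and 0.89 in the same order, so that Dkk3, Rlbp1, Aqp4 and Slc1a3 turned direction, and none passed. Slc1a3 at 204 to 213 CPM touched or exceeded every RA-PBS retina.

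O2-IC100 animal 10 divided the genes. Relative to the mean of animals 9, 11 and 12, Slc1a3, Kcnj10 and Aqp4 were at 0.0805, 0.16 and 0.166 times, and Glul was at 0.671 times. Rlbp1, Apoe, Car14 and Dkk3 were at 2.38, 3.31, 4.6 and 5.77 times, and Etnppl at 1.31 times. The channels and the glutamate transporter were low together with the rod markers, and Rlbp1, Apoe, Car14 and Dkk3 were high together with lens and pigment epithelium markers. The TMM factor of this library was 0.324, against 1.07 to 1.15 in the others, so its scaled levels depend on the normalization more than those of the others.

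The list of other Müller glial genes and that of nuclear regulators each had members on both sides of 0. The lists were written with earlier results of these data known, and values below are from the fit without animal 10, with edgeR adjusted p-values. In the list of other Müller glial genes, 1 of 10 was lower and 1 higher in O2-PBS than in RA-PBS, and the median over the list was -0.03 on the log2 scale. Spc25, a kinetochore gene listed here as a Müller glial transcript, fell from 103 ± 27.2 to 37 ± 6.15 CPM (SD, n = 4 each; log2 fold change -1.48, SE 0.18, adjusted p = 0.000329), and Crym, which encodes a thyroid hormone-binding protein, rose from 56.7 ± 7.4 to 103 ± 16.4 CPM (0.85, SE 0.12, adjusted p = 0.000763). With all 12 retinas neither passed (adjusted p = 0.411 and 0.83). Gpm6b, the most abundant gene of this list, was at 278 ± 38.1 and 252 ± 17.8 CPM and did not pass. Among 12 nuclear regulators tested, Sox9, a glial transcription factor, rose by a log2 fold change of 0.77 (SE 0.16, adjusted p = 0.0121), and the list median was 0.14. Sox9 did not pass with all 12 retinas (adjusted p = 0.774).

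The reactive Müller glial list was higher in O2-PBS for all 12 genes, with 7 past the thresholds (4 with all 12 retinas) and a median log2 fold change of 1.61. Edn2, which encodes the vasoactive peptide endothelin 2, rose from 0.91 ± 0.719 to 30.7 ± 6.77 CPM (log2 fold change 5.09, SE 0.35, adjusted p = 1.14e-05). Fgf2, a growth factor that protects photoreceptors, rose from 20 ± 5.82 CPM in RA-PBS (log2 fold change 2.37, SE 0.17, adjusted p = 1.14e-05), and the transcription factor Cebpd from 8.74 ± 3.34 to 38.2 ± 17.8 CPM (2.13, SE 0.32, adjusted p = 0.00247). Vim, the most abundant, rose by 0.61 (SE 0.17, adjusted p = 0.0444). In O2-IC100 against O2-PBS, all 12 genes were lower and 4 passed, Edn2 (-1.81, SE 0.31, adjusted p = 0.0343), Fgf2 (-1.03, SE 0.18, adjusted p = 0.0343), Stat3 (-1.02, SE 0.21, adjusted p = 0.0659) and Vim (-0.80, SE 0.19, adjusted p = 0.0924). With all 12 retinas none of the 4 passed, and Vim was at 1.37 in the other direction. Against RA-PBS, Edn2 and Fgf2 were still higher in O2-IC100 (3.28 and 1.34, adjusted p = 0.00309 and 0.00616), and with all 12 retinas neither passed (adjusted p = 0.119 for both).

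The functional partners of the 8 Müller glial genes gave few calls. None of 8 glutamate and glutamine handling genes passed in O2-PBS against RA-PBS (median log2 fold change -0.06), and Slc38a3, a glutamine carrier and the most abundant, was at 587 ± 64.6 and 581 ± 27.9 CPM. None of 12 potassium, water and endfoot genes passed (median -0.09), with the most abundant, Dmd, the dystrophin gene, at 188 ± 48 and 222 ± 15 CPM. Of 10 carbonic anhydrase, bicarbonate and lactate carrier genes, Slc16a3, a lactate exporter, rose by 0.71 (SE 0.13, adjusted p = 0.00414), while the list median was -0.46, and Bsg, which encodes the carrier chaperone basigin, was at 624 ± 93 and 749 ± 35.2 CPM without passing. Of 10 retinoid genes, Stra6, a retinol receptor strong in pigment epithelium, fell by 0.91 on the log2 scale (SE 0.23, adjusted p = 0.0245), the list median was -0.25, and Dhrs3 was at 73.9 ± 9.68 and 83.8 ± 8.05 CPM. Of 12 lipoprotein and cholesterol transport genes, the exporter Abca1 (0.62, SE 0.12, adjusted p = 0.00525) and Lcat, which esterifies cholesterol (0.94, SE 0.26, adjusted p = 0.0419), rose, with a list median of -0.07, and Clu was at 490 ± 64.8 and 447 ± 36.7 CPM. Of 9 Dickkopf and Wnt antagonist genes tested, the Dickkopf receptors Kremen1 (0.64, SE 0.12, adjusted p = 0.00464) and Kremen2 (0.70, SE 0.20, adjusted p = 0.0474) rose and Frzb, a secreted Wnt binder, fell by 0.61 on the log2 scale (SE 0.17, adjusted p = 0.0447), with a list median of 0.10. Kremen1 passed with all 12 retinas as well (adjusted p = 0.0783), and the other 6 called genes of this paragraph did not. In O2-IC100 against O2-PBS no gene of these 6 lists passed.

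Around Etnppl, none of 15 tested genes of phosphoethanolamine and phosphatidylethanolamine metabolism passed in any of the 3 comparisons, with or without animal 10, and the median log2 fold change in O2-PBS against RA-PBS was 0.01. Etnk1, the most abundant, makes phosphoethanolamine from ethanolamine, and it was at 298 ± 43.6 CPM in RA-PBS and 301 ± 7.13 CPM in O2-PBS. Pcyt2, the next enzyme of the same pathway, was at -0.30 on the log2 scale (adjusted p = 0.0616), and Phykpl, the closest relative of Etnppl in sequence, at 0.38 (adjusted p = 0.207), both named after their values were seen. None of 9 tested astrocyte genes passed in O2-PBS against RA-PBS (median -0.15, adjusted p = 0.0435 for Aldh1l1 at 0.47), and the most abundant, Aldoc, was at 360 ± 65 and 326 ± 30.3 CPM. Aldh1l1, a folate enzyme, was lower in O2-IC100 than in O2-PBS (-0.70, SE 0.15, adjusted p = 0.0644), and did not pass with all 12 retinas (adjusted p = 0.287).

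Of the marker lists of other cells, none of 11 rod genes passed (median 0.00). In O2-PBS against RA-PBS, 8 of 10 endothelial and 5 of 12 microglia and macrophage genes passed the thresholds as higher, with medians of 0.99 and 0.84 (2 and 0 genes with all 12 retinas), and the summed levels were 525 to 605 CPM against 257 to 372 CPM for endothelium and 119 to 156 CPM against 60.6 to 116 CPM for microglia. All 16 lens genes tested passed as lower (0 with all 12 retinas), with a median of -9.07, while RA-PBS animal 1 had 12.15 CPM of summed lens genes, within the 5.77 to 118.7 CPM of O2-PBS. The part of any of these cells in the differences of the 9 genes was not tested beyond the covariates given.

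**Figure D3:**
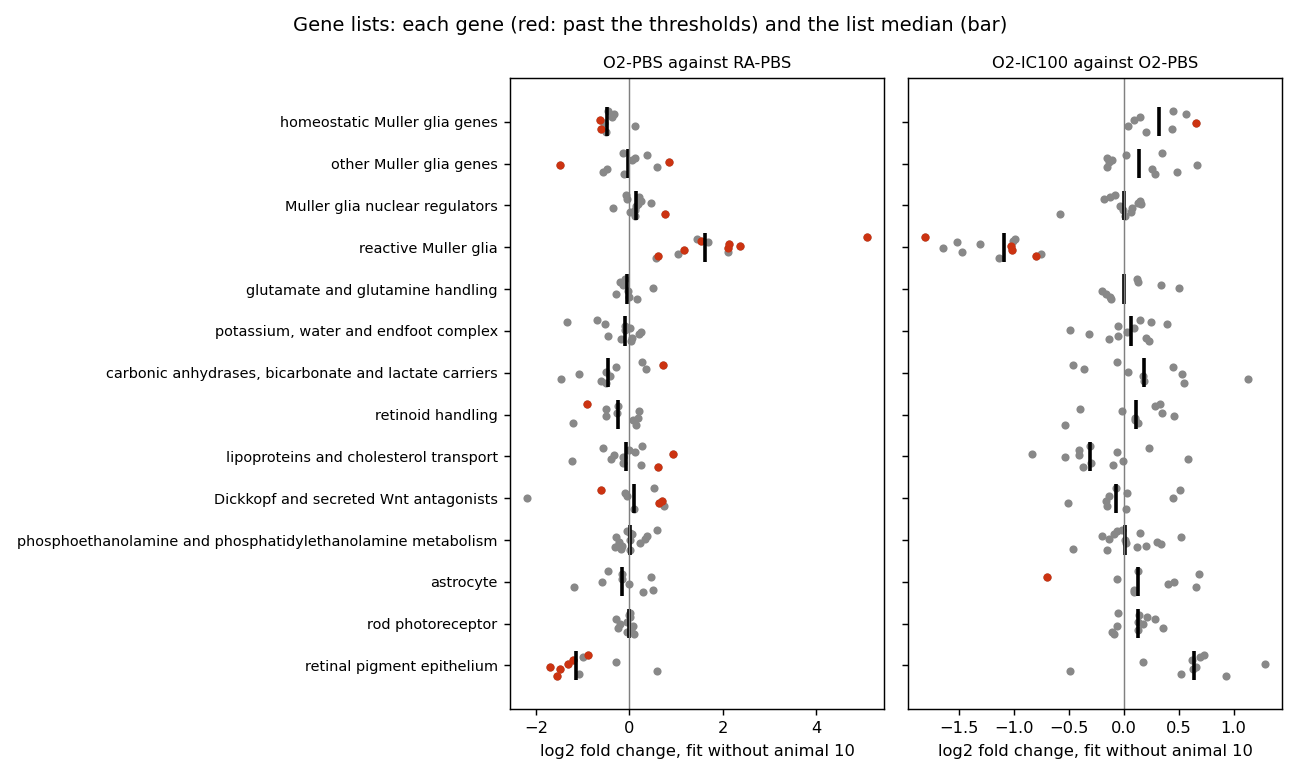
Log2 fold change without O2-IC100 animal 10 of each tested gene in 14 lists, in O2-PBS against RA-PBS and in O2-IC100 against O2-PBS, with genes past the thresholds in red and the list median as a black bar. The homeostatic Müller glial genes had medians of -0.47 and 0.32, the reactive genes 1.61 and -1.09, and the phosphoethanolamine list 0.01 and 0.01.

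Across the 11 retinas other than animal 10, Pearson r of log2 CPM was computed between the genes as a description, over libraries that share their group differences. Among the 28 pairs of the 8 Müller glial genes the median r was 0.48 (range -0.39 to 0.89), and it was 0.40 for deviations from the group means. The closest pairs by level were Glul with Dkk3 and Rlbp1 with Car14, both at 0.89, and within groups Aqp4 with Apoe at 0.81, the 2 genes highest in RA-PBS animal 4. Slc1a3 was at -0.39 to 0.39 with the other 7. Etnppl had a median r of 0.62 with the 8 by level, highest with Kcnj10 at 0.83 and lowest with Slc1a3 at -0.58, but a median of -0.01 (range -0.58 to 0.30) within groups.

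**Figure D4:**
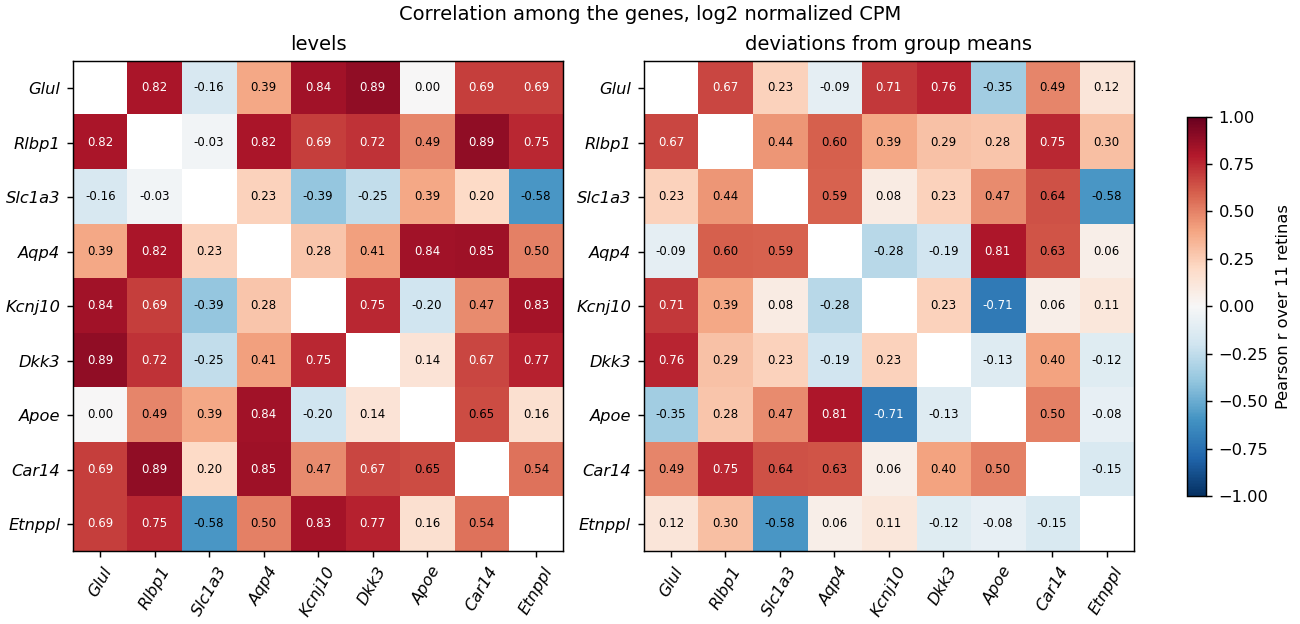
Pearson r over 11 retinas between each pair of genes, for log2 normalized CPM (left) and for deviations from the group means (right), on a colour scale from blue (negative) to red (positive). Etnppl was at 0.83 with Kcnj10 by level and at 0.11 within groups.

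Of 12291 genes with a mean of at least 5 CPM, those most like Etnppl over these 11 retinas included Sec14l5 (r = 0.96), Enox1 (0.95), Cap2, Zfp467 and Hap1 (0.94 each). Hap1 was also among the 6 closest within groups, at 0.86. Those most like the mean of the 8 Müller glial genes were Gria4, Chst9, Calb1, Ppp1r1a, Hpgd and Cplx3, all at 0.97. Within groups the closest to this mean were Mkrn1, Ndrg2 and Napa at 0.98 and Hpf1, Rbfa and Psmd2 at 0.97. All these genes were picked for the highest r among many genes over only 11 retinas. High values are therefore in part a product of the choice, and what the genes share was not tested.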

How the data were processed

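Retinas of 12 mice, 4 per group and 1 library per mouse, were sequenced as polyA RNA in 150 bp paired-end reads. The authors quantified reads with kallisto on GRCm39 release 104 and deposited gene-level expected counts from tximport, of which 42.2% are not whole. The kallisto version is not given in the sources used here. Total counts were 14906970 to 24437916 per retina, and Etnppl rested on as few as 26 counts in an O2-PBS retina.

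Counts were rounded to whole numbers and tested in R 4.3.3 with edgeR 4.0.16 (filterByExpr, TMM, quasi-likelihood test, Benjamini-Hochberg adjustment), with the 3 groups in one fit. Thresholds were a fold change of 1.5, p of 0.05 and adjusted p of 0.1. DESeq2 1.42.0 and limma 3.58.1 were alternatives. On simulated counts for O2-PBS against RA-PBS over 14955 genes, edgeR recovered 81% of 100 genes changed by 1 and 100% of 100 changed by 2 on the log2 scale, with 12 false calls of 193. The simulated levels and spread came from the retinas other than animal 10, and no lens-rich retina was simulated. These rates therefore do not describe the fit of all 12 retinas. Groups came from the labels, which number the mice across groups. The labels do not say that the mice came from separate litters. Named genes were the 9, the next 2 in the ranking that chose Etnppl, and from each list the most abundant gene and up to 3 called genes per direction. The 9 genes and all lists were chosen with earlier results of these data known. Levels per kilobase used GENCODE vM21 transcript lengths, and promoters came from RefSeq (GRCm38.p6). No other coordinates are given, since the builds differ. Some genes that these rules would name are not reported here.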

Additional observations from a re-analysis of the deposited data

Results flagged for a closer look

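In groups of 4, a retina was marked when its gap to the nearest other retina exceeded Dixon's 95% critical share of the range of the group, which chance does in about 1 of 20 groups. Of 27 groups examined (9 genes in 3 groups), 7 were marked, and each time by O2-IC100 animal 10, the retina rich in crystallin RNA. It was the highest of its group for Rlbp1 (897 CPM, next 388), Dkk3 (3140 CPM, next 580), Apoe (2230 CPM, next 715) and Car14 (379 CPM, next 91.5). It was the lowest for Slc1a3 (16.8 CPM, next 204), Aqp4 (14.8 CPM, next 83.2) and Kcnj10 (6.69 CPM, next 40). Glul and Etnppl were not marked. The 7 values come from 1 retina and are not independent.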

How the results depend on the processing

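Etnppl kept its direction under all 28 alternatives in all 3 comparisons, at -2.15 to -1.87 in O2-PBS against RA-PBS, 0.48 to 0.74 in O2-IC100 against O2-PBS and -1.59 to -1.32 in O2-IC100 against RA-PBS. The alternatives refit the same retinas, and Etnppl was chosen by its fall without overlap in the first comparison. Its direction there was thus fixed by the choice, and the other comparisons each share a group with it. These ranges show only how far the processing moved the values. Of the 9 genes, 1 passed the thresholds in O2-PBS against RA-PBS with all 12 retinas. It was 3 with only the 2 groups compared and with DESeq2 without O2-IC100 animal 10, 4 with a crystallin covariate, 2 with a Y-linked covariate without animal 10 and 1 without RA-PBS 1 and animal 10. Leaving out 1 retina gave 1 to 3, the 3 without animal 10. In O2-IC100 against O2-PBS none passed with all 12, and leaving out 1 retina gave 0 to 1, while 6 passed with a Y-linked covariate and 1 with that covariate without animal 10, with DESeq2 without animal 10 and without RA-PBS 1 and animal 10. In O2-IC100 against RA-PBS none passed with all 12, and leaving out 1 retina gave 0 to 1. It was 1 with DESeq2 with and without animal 10, with the Y-linked covariate and without RA-PBS 1 and animal 10, 2 with the Y-linked covariate without animal 10 and 5 with the crystallin covariate. The 4 alternatives chosen after seeing the data, all without animal 10, left out RA-PBS 3, left out RA-PBS 4, or used a pigment epithelium or an oligodendrocyte covariate. In that order the numbers past the thresholds were 4, 4, 5 and 4 in the first comparison, 1, 1, 0 and 1 in the second and 2 each in the third. The share of all genes past the thresholds was computed only for edgeR and DESeq2, each with and without animal 10. With DESeq2 it was 2.5%, 0.758% and 1.81% in the 3 comparisons with all 12 retinas, and 6.99%, 2.3% and 3.39% without animal 10. Nothing about the 9 genes is read from the counts of the other fits. RA-PBS 1 was planned as a retina with a high crystallin share, which was a mistake, since RA-PBS 3 has the highest share in room air.

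Genes whose direction turned were mostly those that animal 10 decides. For O2-IC100 against O2-PBS, leaving out 1 retina moved Slc1a3 over -0.51 to 0.04, Kcnj10 over -0.44 to 0.09 and Glul over -0.01 to 0.20. For O2-IC100 against RA-PBS it moved Rlbp1 over -0.16 to 0.39, Slc1a3 over -0.38 to 0.17, Aqp4 over -0.42 to 0.11, Dkk3 over -0.24 to 1.13 and Car14 over 0.00 to 1.15. With the Y-linked covariate, Glul was -0.10 and Aqp4 -0.05 against O2-PBS, and Glul was -0.07 without animal 10. The other turned values are all without animal 10, in the order RA-PBS 1 left out, DESeq2, Y-linked covariate, RA-PBS 3 left out, pigment epithelium covariate, oligodendrocyte covariate and RA-PBS 4 left out. Against O2-PBS, Slc1a3 was 0.04, 0.03, 0.12, 0.03, 0.15, 0.04 and 0.04, and Kcnj10, which did not turn with the Y-linked covariate, was 0.09, 0.07, 0.08, 0.20, 0.09 and 0.09. Against RA-PBS, Rlbp1 was -0.02, -0.18, -0.20, -0.27, -0.22, -0.15 and -0.14, Slc1a3 was 0.22, 0.15, 0.20, 0.15, 0.12, 0.19 and 0.19, Aqp4 was 0.15, 0.10, 0.24, 0.01, 0.08, 0.29 and 0.29, and Dkk3 was -0.15, -0.25, -0.28, -0.22, -0.28, -0.31 and -0.30. Car14 turned with DESeq2 (-0.02), the Y-linked covariate (-0.03), RA-PBS 3 left out (-0.04) and the pigment epithelium covariate (-0.04). The cause was not tested.

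Over all genes, edgeR with 12 retinas, DESeq2 with 12, edgeR without animal 10 and DESeq2 without it called 133, 412, 1046 and 1167 genes in O2-PBS against RA-PBS, 0, 125, 158 and 383 in O2-IC100 against O2-PBS and 0, 299, 261 and 566 in O2-IC100 against RA-PBS. No paired analysis was possible because the groups share no replicate numbers. Etnppl at 26 to 53 counts in O2-PBS is the gene that depth limits most.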
